A study of Mus musculus with 7 samples.

Results

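The lipid droplet genes examined here were 10 genes chosen by name, the coat proteins Plin2, Plin3, Plin4 and Plin5, the fusion proteins Cidea, Cideb and Cidec, and the triglyceride lipase Pnpla2 with its inhibitors G0s2 and Hilpda. Each was the row of the count table whose Ensembl identifier carries that symbol in the GENCODE annotation of GRCm38. They make up 10 of the 55487 genes in the table. 7 of the 10 had a count in at least 1 library, and 4 (Plin2, Plin3, G0s2 and Hilpda) passed edgeR's filter on low counts and could be tested. None of the 4 passed the test between slices cultured without and with valproic acid. The log2 fold change of Hilpda was 0.80 (SE 0.484). Pnpla2 was counted in 2 of 3 control libraries and listed at 0 in all 4 treated ones, in a table where genes that every cell uses are also listed at 0.

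Hepatocytes store triglyceride in lipid droplets, which are covered by a single layer of phospholipid and a coat of perilipins. Plin2 and Plin3 coat droplets in most tissues, Plin5 is typical of tissues that burn fatty acids, and Plin4 of adipose tissue and muscle. The CIDE proteins sit where droplets touch and move lipid from the smaller into the larger. Pnpla2, known as ATGL, makes the first cut in a stored triglyceride, and G0s2 and Hilpda both bind and inhibit it. Valproic acid is a branched fatty acid used against epilepsy and an inhibitor of class I histone deacetylases. Fat accumulation in the liver is a known adverse effect of the drug, and for this reason the droplet genes were read in the slices.

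The libraries came from mouse precision-cut liver slices (PCLS), discs of living liver in which hepatocytes stay beside the other liver cells. The livers were those of healthy adult male BALB/c mice, and the discs, 250 µm thick and 3 mm wide, were kept for 3 days in supplemented Williams' Medium E. The medium held no valproic acid in the 3 control cultures (CTR) and 2.5 mM of its sodium salt in the 4 treated cultures (VPA). No genotype, injury or second agent set the groups apart, no fresh liver is among the libraries, and the labels give no measure of droplets or of triglyceride. The titles also carry the number of a slice culture (culture 71, 72 or 74 in both groups, culture 73 in VPA replicate 1 alone). The study defines a biological repeat as a different mouse liver, but the labels do not say whether a culture number stands for a liver, so p-values measure only the spread between these libraries.

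**Figure D1:**
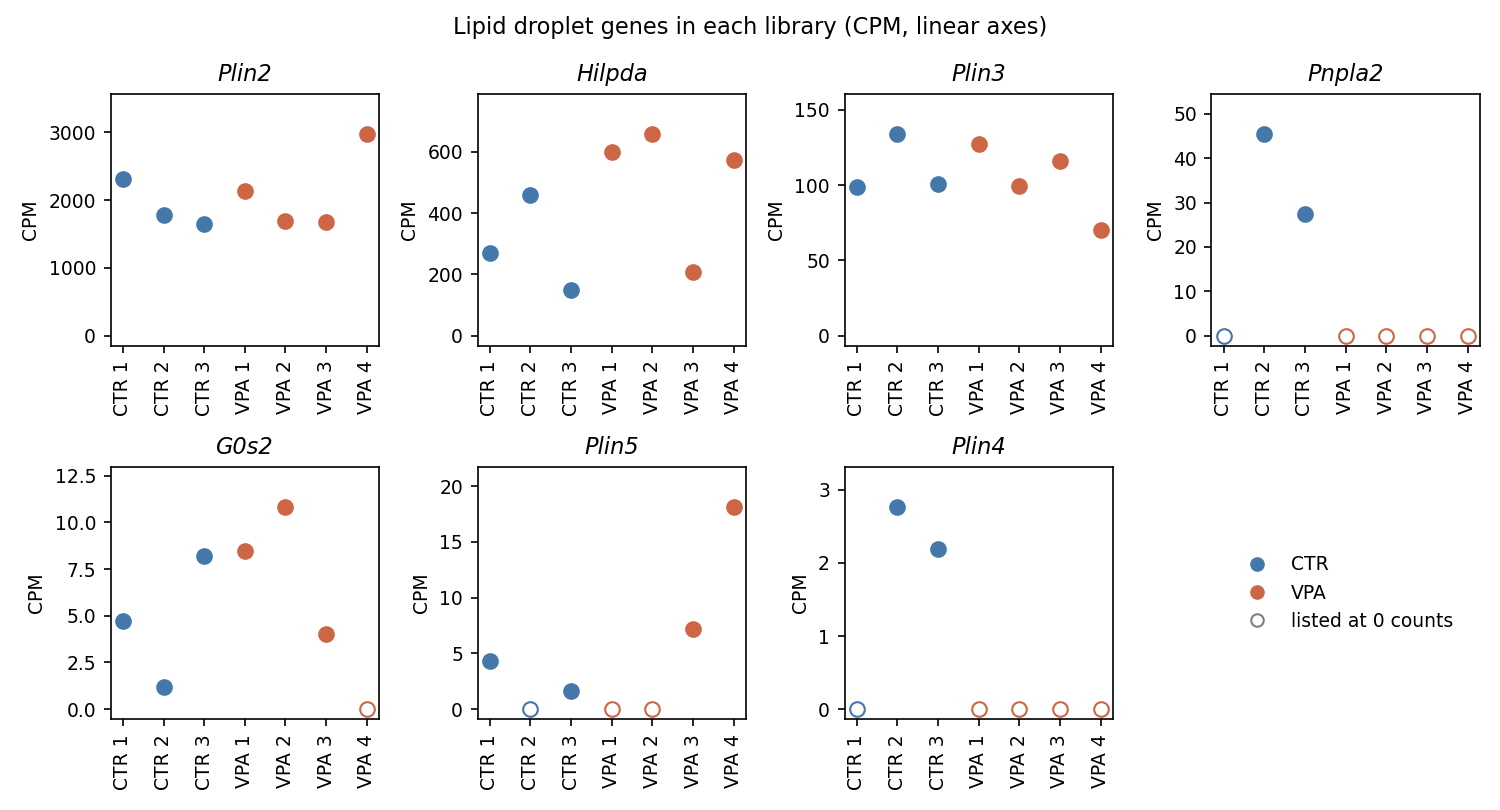
Level of the 7 lipid droplet genes with a count, in CPM (counts scaled to the size of the library, so that libraries can be compared), in 3 CTR and 4 VPA libraries. Each point is 1 library, each panel has its own linear axis, and open points are libraries in which the gene is listed at 0; Plin2 lies between 1650 and 2976 CPM in all 7 libraries, while Pnpla2 has a count in 2 CTR libraries alone.

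The libraries held 1400887 to 4773750 counts on genes, so the 3 counts that a 0 allows are worth 0.591 to 2.41 CPM, for counting error only. Zeros in the table went beyond this limit. Of the 6400 genes with a mean of at least 20 CPM, 634 (9.91%) were listed at 0 in at least 1 library, 117 in a CTR library and 594 in a VPA library. The share per library was 0.406% to 1.2% in CTR and 1.64% to 5.3% in VPA, highest in VPA replicate 1. Among genes that every cell uses, picked after their values were seen, the splicing gene Snrpd3 was listed at 0 in VPA replicates 1 and 2 and at 260 to 391 CPM elsewhere, and the RNA polymerase subunit Polr2e was at 0 in VPA replicate 1 and at 129 to 187 CPM elsewhere. A 0 is therefore given below only as the value listed, and the zeros move with the group.

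**Figure D2:**
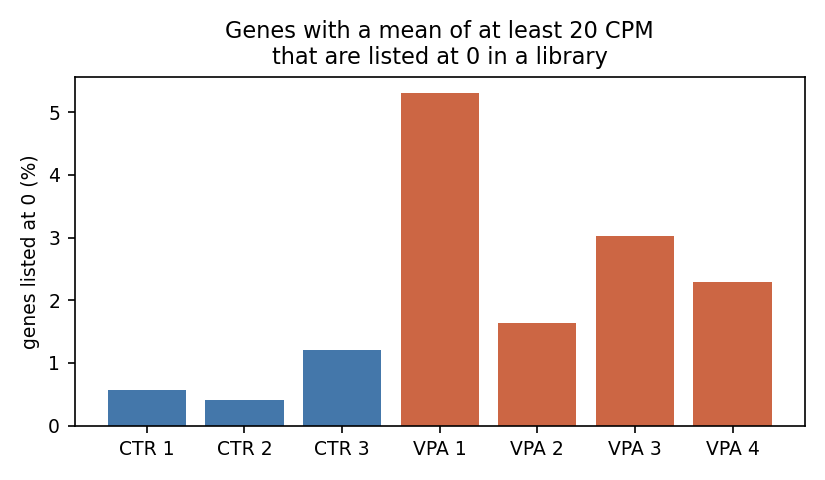
Percent of the 6400 genes with a mean of at least 20 CPM that are listed at 0 counts, for each library. The 4 VPA bars (1.64% to 5.3%) all stand above the 3 CTR bars (0.406% to 1.2%).

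Plin2 and Hilpda held 77.2% and 17.4% of all counts on the 10 genes, and their promoters are shown because nearly the whole signal of the set rests on this pair. Each window runs from 250 bases before to 50 bases after a RefSeq transcription start, on the strand of the gene, in GRCm38.p6. Capitals mark matches, on either strand, to the half-site of the PPAR nuclear receptors (AGGTCA) and to the core bound by hypoxia-inducible factors (ACGTG or GCGTG). Plin2 is shown at chr4:86670010-86670309 on the minus strand and the downstream one of the 2 starts of Hilpda at chr6:29272376-29272675 on the plus strand.
Plin2: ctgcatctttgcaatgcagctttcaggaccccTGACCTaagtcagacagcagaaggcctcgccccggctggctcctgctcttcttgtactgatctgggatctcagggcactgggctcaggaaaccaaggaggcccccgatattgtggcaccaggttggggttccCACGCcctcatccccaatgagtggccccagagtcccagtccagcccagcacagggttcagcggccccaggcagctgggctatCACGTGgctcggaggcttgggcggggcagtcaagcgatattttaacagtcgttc
Hilpda: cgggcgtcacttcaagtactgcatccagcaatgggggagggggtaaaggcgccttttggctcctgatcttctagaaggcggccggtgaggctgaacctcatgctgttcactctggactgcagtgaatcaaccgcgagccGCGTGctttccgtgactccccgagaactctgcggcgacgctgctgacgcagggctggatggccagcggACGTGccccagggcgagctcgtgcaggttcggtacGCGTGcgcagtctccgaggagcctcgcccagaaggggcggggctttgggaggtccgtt
The Plin2 window held 1 PPAR half-site, whose first base lies 218 bases before the start, and a core ACGTG on both strands inside an E-box (CACGTG) 4 bases before it. It also held GCGTG on the opposite strand, 86 bases before the start. The Hilpda window held ACGTG 43 bases before the start and GCGTG at 111 and 8 bases before it. The cyclic AMP response core TGACG, left in lower case, matched this Hilpda window in both directions.

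These motifs are common. AGGTCA was found in 16.3% of the 32851 promoter windows of the same length, ACGTG in 19.6%, GCGTG in 32.4%, TGACG in 20.8% and CACGTG in 7.15%. Of the 12 windows read for 9 lipid droplet genes (Cidea was left out), 3 held AGGTCA, 2 held ACGTG, 9 held GCGTG and 3 held TGACG. The windows of Hilpda overlap each other, as do those of Plin5. A GCGTG of each of these genes and a TGACG of Hilpda were therefore counted in both windows. The TATA box (TATAAA) was in 1 of the 12 and in 13.6% of all windows. The full PPAR direct repeat, a pair of half-sites with 1 base between them, was in none of the 12 and in 0.0396% of all windows. A match is a string of letters and not a shown binding site. The windows of Pnpla2, Plin3 and Plin4 held none of the motifs searched.

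Plin2 (ENSMUSG00000028494, chr4:86648386-86670060, minus strand) encodes the main perilipin of hepatocyte droplets, a protein that is degraded when it is not bound to lipid. It was the most abundant of the set on 3′ tags, which do not scale with transcript length. Its level was 2305, 1780 and 1650 CPM in CTR replicates 1 to 3, and 2134, 1690, 1683 and 2976 CPM in VPA replicates 1 to 4. The groups overlapped, with VPA replicate 4 above every CTR library and the other three VPA libraries inside the CTR range. The means were 1912 ± 347 CPM (SD, n = 3) in CTR and 2121 ± 608 CPM (SD, n = 4) in VPA. The log2 fold change was 0.15 (SE 0.245, 95% interval −0.42 to 0.72) and did not pass edgeR's quasi-likelihood test with Benjamini-Hochberg adjustment (adjusted p = 0.949). Without VPA replicate 4 the log2 fold change of Plin2 was −0.0644, and without CTR replicate 1 it was 0.295. Plin2 ranked 18 to 33 among all genes by count in the CTR libraries and 15 to 36 in the VPA libraries. In bulk slices, fewer cells of a type and less RNA per cell cannot be told apart.

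Plin3 (ENSMUSG00000024197, chr17:56277476-56292873, minus strand), also called TIP47, is a perilipin that moves from the cytosol onto young droplets. It stood at 98.9, 134 and 101 CPM in CTR replicates 1 to 3 and at 127, 99.3, 116 and 70.2 CPM in VPA replicates 1 to 4. VPA replicate 4, the library with the most Plin2, had the least Plin3, and the other three VPA libraries lay within the CTR range. The means were 111 ± 19.5 CPM (SD, n = 3) and 103 ± 24.7 CPM (SD, n = 4). The log2 fold change was −0.11 (SE 0.233, 95% interval −0.65 to 0.43, edgeR adjusted p = 0.961), and 0.0361 without CTR replicate 2 and 0.0277 without VPA replicate 4. Plin2 had 13.3 to 23.3 times the tags of Plin3 in CTR libraries and 14.6 to 42.4 times in VPA libraries.

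Plin5 (ENSMUSG00000011305, chr17:56111601-56117596, minus strand), the perilipin that tethers droplets to mitochondria, was counted in 4 of 7 libraries. It had 11, 0 and 3 counts in CTR replicates 1 to 3 (4.33, 0 and 1.64 CPM) and 0, 0, 9 and 24 counts in VPA replicates 1 to 4 (0, 0, 7.23 and 18.1 CPM). The 2 highest levels were both in VPA libraries, and 2 of the 3 libraries listed at 0 were VPA libraries. It did not pass the filter on low counts and was not tested in the fit given here. DESeq2, which was run on every gene with a count, gave an unadjusted p of 0.452.

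Plin4 (ENSMUSG00000002831, chr17:56100591-56109803, minus strand), a long perilipin of small new droplets, had 0, 14 and 4 counts in CTR replicates 1 to 3 and 0 in every VPA library. Its highest level was 2.76 CPM in CTR replicate 2, close to the 3 counts that a 0 allows in the shallower libraries. It did not pass the filter on low counts, and DESeq2, on every gene with a count, gave an unadjusted p of 0.28 and no adjusted p. The last 17 bases of Plin4 overlap the end of Hdgfl2 on the other strand, and Hdgfl2 stood at 29.5 to 50.4 CPM in all 7 libraries.

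Cidea (ENSMUSG00000024526, chr18:67343604-67367785, plus strand), Cideb (ENSMUSG00000022219, chr14:55754050-55758458, minus strand) and Cidec (ENSMUSG00000030278, chr6:113424634-113435760, minus strand) were listed at 0 in all 7 libraries. Cidea and Cidec are best known from fat tissue and from fatty liver, while Cideb is a hepatocyte gene that also acts in the loading of very low density lipoprotein (VLDL). Cidea overlaps B430212C06Rik on the other strand without a shared exon base, and that gene was also at 0. The value listed for Cideb stands beside a larger overlap. Of its 1488 exon bases, 1136 lie within exons of Nop9 on the opposite strand, the whole of its last 300 bases included, which is where 3′ tags fall. Nop9 was counted at 38.2 to 57 CPM in CTR and 23.4 to 42.5 CPM in VPA libraries. How reads in such an overlap were assigned is not given in the sources used here, and its part in the 0 of Cideb was not tested.

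Pnpla2 (ENSMUSG00000025509, chr7:141455198-141460743, plus strand) had 0, 231 and 50 counts in CTR replicates 1 to 3, which is 0, 45.5 and 27.4 CPM. It was listed at 0 in VPA replicates 1, 2, 3 and 4. At the level of CTR replicate 3, the VPA libraries would have held 42, 89, 34 and 36 reads of Pnpla2, above the 3 counts that a 0 allows for counting error. CTR replicate 1 was also at 0, and the CTR and VPA libraries therefore overlapped. Pnpla2 did not pass the filter on low counts. In DESeq2 it had an unadjusted p of 0.0313 and an adjusted p of 0.531, and no fold is given against a group listed at 0. In all, 21 genes of the table had at least 20 CPM in at least 2 CTR libraries with 0 in every VPA library, and 4 genes had the reverse. The excess of zeros in the VPA libraries moves with this pattern, and its part in it was not tested.

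G0s2 (ENSMUSG00000009633, chr1:193272161-193273217, minus strand), an inhibitor of Pnpla2 found in fat and liver, was near the limit of detection. It had 12, 6 and 15 counts in CTR replicates 1 to 3 (4.73, 1.18 and 8.22 CPM) and 13, 35, 5 and 0 counts in VPA replicates 1 to 4 (8.49, 10.8, 4.01 and 0 CPM). The lowest and the highest level were both in the VPA group. The log2 fold change of 0.35 had an SE of 1.28 and a 95% interval from −2.63 to 3.32 (edgeR adjusted p = 0.974), so that a rise or a fall of several fold both lay within the interval at this depth. Its value was 1.19 with limma-voom, −0.141 without CTR replicate 2, 0.748 without VPA replicate 4 and 0.972 without CTR replicate 3. The gene lies within the span of Lamb3 on the other strand but shares no exon base with it, and Lamb3 was at 0 to 4.01 CPM.

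Hilpda (ENSMUSG00000043421, chr6:29272488-29275446, plus strand) encodes a small droplet protein that is induced by hypoxia and by fatty acids and slows lipolysis. It stood at 268, 458 and 150 CPM in CTR replicates 1 to 3 and at 598, 658, 207 and 572 CPM in VPA replicates 1 to 4. VPA replicates 1, 2 and 4 lay above every CTR library, but VPA replicate 3 fell within the CTR range. The means were 292 ± 156 CPM (SD, n = 3) and 509 ± 204 CPM (SD, n = 4). The log2 fold change was 0.80 (SE 0.484, 95% interval −0.33 to 1.93), with an unadjusted p of 0.139 and an adjusted p of 0.759 in edgeR. DESeq2 gave an adjusted p of 0.796. The log2 fold change was 1.28 without CTR replicate 2 (unadjusted p = 0.0439 in edgeR) and 0.464 without CTR replicate 3 (unadjusted p = 0.365 in edgeR), the highest and lowest CTR library. Plin2 had 3.88 to 11 times the tags of Hilpda in the CTR libraries and 2.57 to 8.12 times in the VPA libraries.

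**Figure D3:**
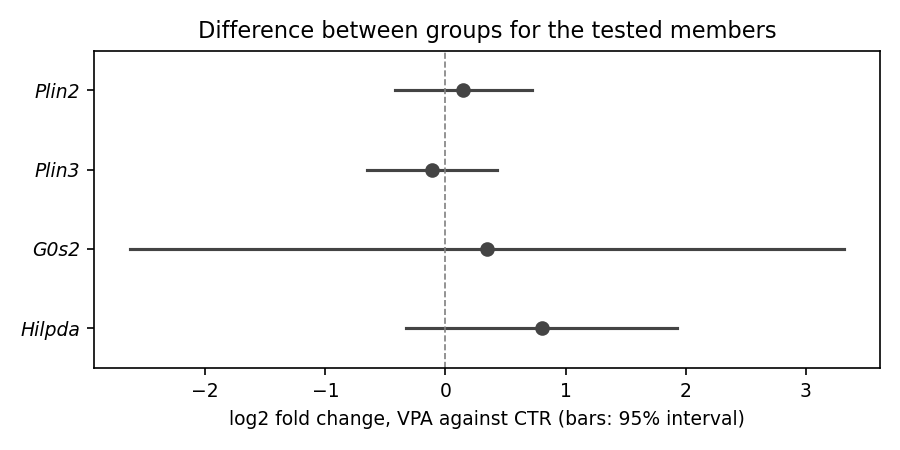
Log2 fold change of VPA against CTR for the 4 lipid droplet genes that were tested, with the 95% interval from edgeR's fit. Every interval includes 0, and that of G0s2 (−2.63 to 3.32) is the widest.

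Counted over the set, 0 of the 4 tested genes passed an adjusted p of 0.05, against 1 of 10876 genes (0.00919%) in edgeR. DESeq2 called 154 of the 15261 genes to which it gave an adjusted p (1.01%) and 0 of the 6 members among them. At an unadjusted p under 0.05 in edgeR, 0 of 4 were higher and 0 of 4 lower, against 3.65% and 4.62% of all genes tested. Every VPA library lay above every CTR library for 0 of 4 (4.44% of all genes tested) and below for 0 of 4 (7.41%). The median log2 fold change of the 4 was 0.25, against −0.057 over all genes tested. Over the same 4 genes it was −0.0685 with a replicate block by slice culture, 0.458 with limma-voom and 0.381 without VPA replicate 4. The 10 genes together took 0.203% to 0.257% of all counts in the CTR libraries and 0.179% to 0.331% in the VPA libraries.

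The slice culture numbers allow CTR and VPA libraries to be set side by side in cultures 71, 72 and 74, a comparison chosen after the values were seen. The level of Hilpda with VPA was 1.38, 2.14 and 1.44 times that of CTR in cultures 71, 72 and 74, higher in 3 of 3, as were 14.7% of all genes tested. Culture 71 had the least Hilpda and culture 74 the most in both groups. For Plin2 the ratios were 1.02, 1.29 and 0.95, and culture 72 had the highest level of the 3 in CTR and in VPA. Both genes thus kept the order of the 3 cultures, which 21.1% of all genes tested did. Plin3 went to 1.15, 0.71 and 0.743 times its CTR level. Plin5 was 4.39 and 4.18 times its CTR level in cultures 71 and 72, on 3 to 24 counts, and at 0 in both libraries of culture 74. G0s2 went to 0.488 times in culture 71 (15 and 5 counts), from 4.73 CPM (12 counts) to 0 in culture 72, and to 9.1 times in culture 74 (6 and 35 counts). With the slice culture as a replicate block in edgeR, which leaves few degrees of freedom, the log2 fold change of Hilpda was 0.697 (SE 0.178), with an unadjusted p of 0.0153 and an adjusted p of 0.554.

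**Figure D4:**
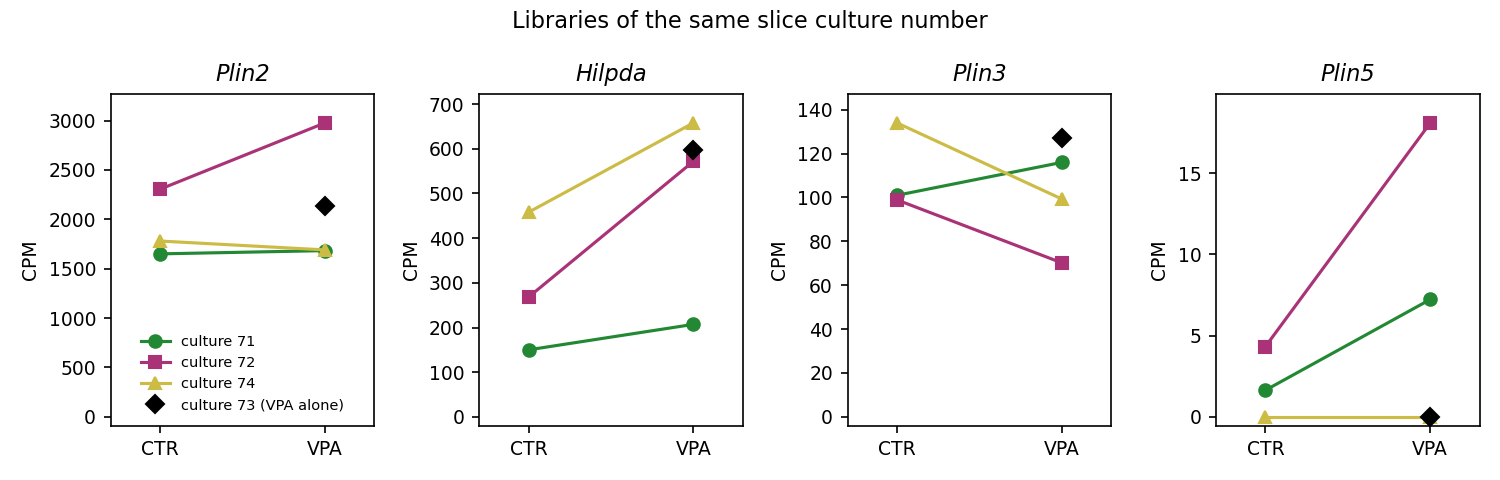
Level of Plin2, Hilpda, Plin3 and Plin5 (CPM, linear axes) in CTR and VPA libraries of the same slice culture number, joined by a line, with culture 73 as a single VPA library. The 3 Hilpda lines rise, the Plin2 lines keep culture 72 on top, and the Plin3 lines cross.

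Around the droplet, no tested gene of lipolysis, triglyceride synthesis, droplet assembly, VLDL export or fatty acid uptake passed an adjusted p of 0.05 in edgeR. The lists here and below were written from general knowledge but with earlier results of these data known, so their counts only describe them. Over all genes tested, at an unadjusted p under 0.05, 3.65% were higher and 4.62% lower, 4.44% had every VPA library above and 7.41% every VPA library below every CTR library, and the counts in each list stand beside these shares. Of 15 lipolysis genes 10 were tested and 1 was higher at an unadjusted p under 0.05 (3.65% of all genes tested), the monoacylglycerol lipase gene Abhd6. It stood at 25.6, 15.2 and 14.8 CPM in CTR and at 28.7, 56, 79.5 and 50.6 CPM in VPA libraries, without overlap (log2 fold change 1.53, SE 0.401, edgeR adjusted p = 0.342). Abhd5, the coactivator of Pnpla2, was at 27.4 to 51.1 CPM in CTR and 22.7 to 47 CPM in VPA libraries (log2 fold change −0.08). Plin1, the perilipin of fat cells, was listed at 0 in all libraries. The median over the lipolysis genes tested was 0.00687.

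For triglyceride synthesis, 18 of 20 genes were tested, 2 were higher with an unadjusted p under 0.05 (3.65% of all genes tested), 0 were lower (4.62%), and the median log2 fold change was −0.0259. Lpin1, a phosphatidate phosphatase, stood at 25.6, 21.7 and 33.4 CPM in CTR and at 69.9, 63.3, 36.1 and 42.3 CPM in VPA libraries (log2 fold change 0.98, SE 0.315, edgeR adjusted p = 0.466). The groups did not overlap. The other gene, the acyltransferase Agpat5, overlapped between groups (0.70, SE 0.233). Of 16 genes of droplet assembly, among them the seipin gene Bscl2 and the fat storage gene Fitm2, 14 were tested and none was higher or lower at that threshold (median −0.00707). Of 10 genes of VLDL export 8 were tested and 1 was higher at that threshold. This was Apoa4, a lipid-binding apolipoprotein, at 4.73, 15.4 and 6.03 CPM in CTR and at 52.2, 57.5, 84.3 and 56.6 CPM in VPA libraries (log2 fold change 2.80, SE 0.468). Its adjusted p was 0.142 in edgeR and 2.61e-05 in DESeq2.

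Among 10 genes of fatty acid uptake, 8 were tested, and at an unadjusted p under 0.05, 1 was lower and 0 higher (median −0.21). This was the fatty acid binding protein gene Fabp5, at 73.7, 62.7 and 94.3 CPM in CTR and at 50.9, 46.1, 49 and 57.4 CPM in VPA libraries, without overlap (log2 fold change −0.59, SE 0.199, edgeR adjusted p = 0.492). Of 19 targets of PPARA, the receptor through which fatty acids switch on their own oxidation and a known regulator of Plin2, Plin5 and Hilpda, 15 were tested and 13 had a log2 fold change above 0 (median 0.35), against 4982 of all 10876 genes tested (median −0.057). At an unadjusted p under 0.05, 4 were higher (3.65% of all genes tested) and 0 lower (4.62%). Only Creb3l3, a transcription factor of the fasted liver and the only gene of the table called by edgeR, passed the adjusted test within the list (log2 fold change 2.58, SE 0.205, adjusted p = 0.0247 in edgeR and 6.39e-28 in DESeq2). It stood at 78.8 to 118 CPM in CTR and 520 to 689 CPM in VPA libraries, without overlap. In edgeR no gene of the table was called without CTR replicate 1, CTR replicate 2, VPA replicate 1 or VPA replicate 3. Pdk4, which spares glucose, was listed at 9.46, 23.7 and 0 CPM in CTR and at 78.3, 83.6, 24.9 and 86.1 CPM in VPA libraries (log2 fold change 2.56, SE 1.02, edgeR adjusted p = 0.571). Cpt1a, which brings fatty acids into mitochondria, was at 35.9 to 47.7 CPM in CTR and 54.8 to 85.1 CPM in VPA libraries (log2 fold change 0.74, SE 0.227, edgeR adjusted p = 0.447). Of 14 hypoxia response genes, whose class Hilpda also belongs to, 12 were tested, with 0 higher and 1 lower at that threshold (median −0.222), the lactate dehydrogenase gene Ldha, whose groups overlapped.

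**Figure D5:**
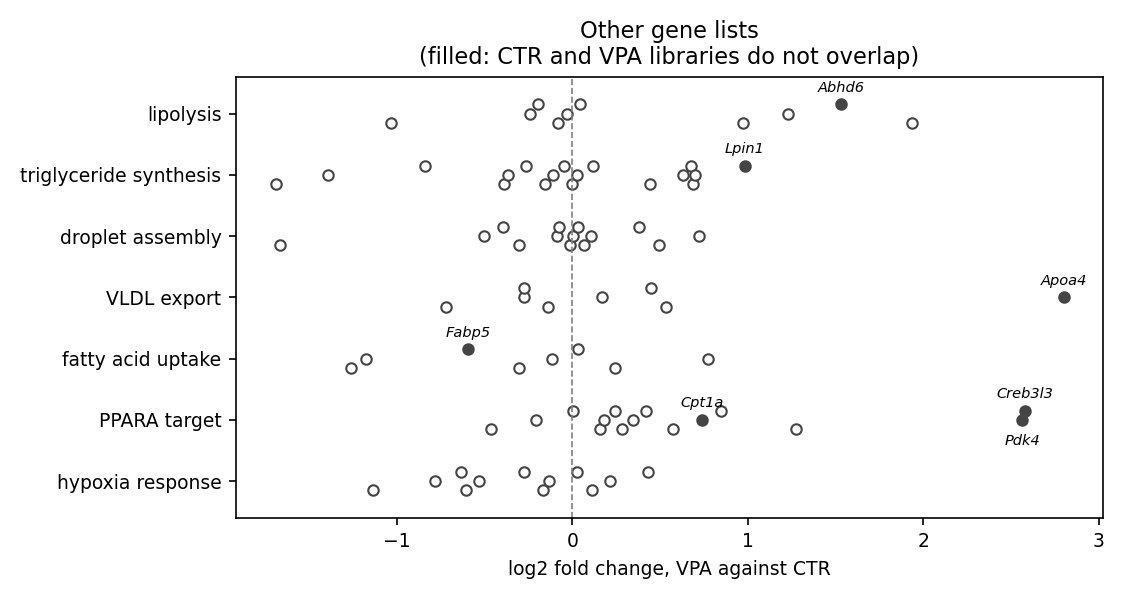
Log2 fold change of VPA against CTR for each tested gene of 7 other lists. Filled points are genes whose CTR and VPA libraries do not overlap, and the genes of this kind with the most marked change in each list are named. Apoa4 (2.80) and Creb3l3 (2.58) lie farthest to the right, and the droplet assembly and hypoxia response lists have no filled point.

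Most hepatocyte markers were expressed in all slices. Alb was at 827 to 2175 CPM in CTR and 785 to 5066 CPM in VPA libraries, Ttr at 206 to 587 and 243 to 629 CPM, and Apoa1 at 393 to 3656 and 251 to 1230 CPM. The 12 markers summed to 8860 to 22607 CPM in CTR and 5752 to 19293 CPM in VPA libraries, and none passed an unadjusted p of 0.05. Cps1, of the urea cycle, was at 0 to 22.9 CPM and listed at 0 in CTR replicate 2 and VPA replicate 2, and Cyp2e1, a drug-metabolizing enzyme, was at 0 to 69.9 CPM and listed at 0 in CTR replicate 1. Of 7 adipocyte markers 5 were at 0 in every library, the defining genes Adipoq and Plin1 among them. The other adipocyte markers were Car3 and Lipe, which liver can express, and the list summed to 34 to 182 CPM in CTR and 112 to 300 CPM in VPA libraries.

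Of 9 stellate cell markers, 8 had a log2 fold change under 0, against 5894 of all 10876 genes tested, and 2 were lower at an unadjusted p under 0.05 (4.62% of all genes tested). These were the collagens Col1a1 (log2 fold change −1.66, adjusted p = 0.112 in edgeR and 4.39e-07 in DESeq2) and Col3a1 (−1.51, adjusted p = 0.417 in edgeR and 0.0613 in DESeq2). Des, Hand2 and Pdgfrb, also among the 8, were listed at 0 in at least 1 VPA library each and in no CTR library, and these zeros are only listed values. The stellate cell list summed to 1519 to 3250 CPM in CTR and 1158 to 2602 CPM in VPA libraries. Stellate cells store lipid droplets too, and their part in the levels of Plin2, Plin3 and Hilpda was not tested. The macrophage list summed to 238 to 297 CPM in CTR and 236 to 421 CPM in VPA libraries, the cholangiocyte list to 268 to 614 and 258 to 741 CPM, and the endothelial list to 208 to 240 and 69 to 236 CPM. Of the 6 endothelial markers 5 were tested, none with an unadjusted p under 0.05, and 4 had a log2 fold change under 0. Cdh5 was at 80, 65.2 and 76.2 CPM in CTR and at 0, 0, 29.7 and 26.4 CPM in VPA libraries (unadjusted p = 0.106 in edgeR), while Kdr had its highest level of all, 139 CPM, in VPA replicate 2.

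The genes whose log2 CPM followed Plin2 most closely over the 7 libraries, among 6399 other genes with a mean of at least 20 CPM, were Phf23 (Pearson r = 0.95), Kmt2a (0.945), Pdrg1 (0.941), Chd8 (0.94) and Hmgxb4 (0.929). The 7 libraries share groups, cultures and normalization, so these values only describe likeness. Kmt2a stood at 282, 258 and 239 CPM in CTR and at 279, 268, 240 and 353 CPM in VPA libraries, with VPA replicate 4 highest, as for Plin2.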

How the data were processed

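RNA of 3 CTR and 4 VPA slice cultures was read as 3′ tags (QuantSeq FWD, single-end). The authors trimmed and checked the reads, aligned them to GRCm38.p6 (mm10 in the submitters' processing notes) with STAR, used StringTie for assembly, and deposited raw counts per Ensembl gene as whole numbers, without normalization. Which program counted the reads, whether strand was used and how reads with several positions were treated is not given in the sources used here.

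Groups, replicates and slice cultures were read from the sample titles. Symbols, coordinates and overlaps came from GENCODE on GRCm38, which left 346 of 55487 genes without a symbol, and promoters from RefSeq on GRCm38.p6. In R 4.3.3, edgeR 4.0.16 fitted all 10876 genes that passed filterByExpr (TMM, robust quasi-likelihood fit, condition only, two-sided, Benjamini-Hochberg over all genes tested, threshold 0.05). The biological coefficient of variation was 0.609. CPM used TMM library sizes, and log2 CPM a prior count of 2. The study names DESeq2, run here (1.42.0) on every gene with a count as an alternative, beside limma-voom (3.58.1), other normalizations and filters, replicate blocks and leaving out each library. The code was tested on simulated data. A mean ± SD is given only for genes counted in all 7 libraries.

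Library pairs within a group differed by more than sampling noise (chi-square per degree of freedom 14.7 to 27.3). The residuals of CTR and VPA libraries with the same slice culture correlated at 0.107, 0.0256 and 0.0546 (cultures 71, 72 and 74). Those with the same replicate number correlated at −0.0539, 0.0546 and 0.107 (replicates 1, 2 and 3). Replicates 2 and 3 are the same library pairs as cultures 74 and 71. The comparison, like that of the blocked fits, therefore differs only in the partner of CTR replicate 1 and cannot decide whether the libraries are paired. They were not treated as paired in the main fit.

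The members and lists were chosen with earlier results of these data known. Named genes were all members, up to 3 genes per other list with the largest change among those whose groups did not overlap and whose higher group averaged 5 CPM or more, the 5 genes most like the most abundant member, Alb, Ttr, Apoa1 and genes overlapping a member. Abhd5, Plin1, Bscl2, Fitm2, Agpat5, Ldha, Adipoq, Car3, Lipe, Cps1, Cyp2e1 and Kdr were added after values were seen. Some genes of the uptake and PPARA lists are not reported here and were left out of their counts. qPCR, protein, histology and human slice experiments were not analysed here.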

Additional observations from a re-analysis of the deposited data

Results flagged for a closer look

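The total count of VPA replicate 2, 3102450, stood apart from those of the other three VPA libraries, which lay between 1400887 and 1515954. Its gap to the next library was 0.932 of the range of the group, beyond Dixon's 95% critical value for 4 libraries. Chance flags about 0.05 of such groups, and 12 measures were examined. The levels of Plin2 (1690 CPM), Plin3 (99.3 CPM) and Hilpda (658 CPM) in this library are scaled to its size. No level of a lipid droplet gene stood apart by this measure.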

How the results depend on the processing

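No lipid droplet gene had an adjusted p under 0.05 in any of the 16 alternatives, and the log2 fold change of Hilpda stayed above 0 in 16 of 16 (0.464 to 1.28, adjusted p 0.444 to 1). The number of members higher with VPA at an unadjusted p under 0.05 went from 0 to 1 (Hilpda) with a replicate block by slice culture or by replicate number, and ranged from 0 to 1 when each library was left out (1 without CTR replicate 2 or VPA replicate 3). The number lower went from 0 to 1 with DESeq2 on every gene with a count (Pnpla2), to 2 in edgeR without a filter (Plin4 and Pnpla2), both of which also fit genes that the filter leaves out, and ranged from 0 to 1 when each library was left out (Pnpla2, without CTR replicate 1). The number with every VPA library above every CTR library ranged from 0 to 1 (Hilpda, without VPA replicate 3) and the number below from 0 to 2 (Plin4 and Pnpla2, without CTR replicate 1). CTR replicate 1 is the only CTR library in which Plin4 and Pnpla2 are listed at 0, and VPA replicate 3 the only VPA library in which Hilpda is within the CTR range, so the values without them follow from that choice and support no difference. With a block by replicate number the log2 fold change was −0.0526 for Plin2 and 0.0402 for Plin3, and with a block by slice culture it was −0.51 for G0s2. Blocked by slice culture, Hilpda had 0.697 (SE 0.178). Leaving out 1 library moved Plin2 between −0.0644 and 0.295, Plin3 between −0.227 and 0.0361 and G0s2 between −0.141 and 0.972 (G0s2 was not tested without VPA replicate 1 or 2), limma-voom gave G0s2 1.19, and the cause was not tested. The median over the members each fit tested was −0.0685 with a block by slice culture and 0.458 with limma-voom (4 members each), 0.0508 without a filter (7 members) and 0.0915 to 0.464 when each library was left out (3 to 6 members). edgeR called 1 gene of the table, 0 with either block, 0 to 2 when each library was left out (0 without CTR replicate 1 or 2 or VPA replicate 1 or 3), 10 without a filter and 36 with at least 10 counts in every library, and DESeq2 called 154. For counting error alone, a level under 0.591 to 2.41 CPM cannot be told from 0, which limits Plin4, Plin5 and G0s2. Zeros in the table went beyond this limit, so no listed 0 is bounded by it, those of Pnpla2, Cidea, Cideb and Cidec included.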
